A study of Saccharomyces cerevisiae with 10 samples.

Results

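The 7 genes described here encode the yeast machinery that licenses replication origins: MCM2, MCM3, MCM4 (also called CDC54), MCM5 (CDC46), MCM6, MCM7 (CDC47) and CDC6. They were taken by systematic name (YBL023C, YEL032W, YPR019W, YLR274W, YGL201C, YBR202W and YJL194W) from the 5822 genes of the table, and all 7 were present. Transcript levels were measured on 10 2-colour arrays of *Saccharomyces cerevisiae* total RNA, each against a channel labelled as a reference, in a wild type and in a strain titled delPPT1 and described as a ppt1 mutant. PPT1 encodes a protein phosphatase of the chaperone Hsp90. Each strain had 1 array at 0 min, before a hypo-osmotic shift, and 1 array at 7, 30 and 60 min after it. One further array, from 16 min for the wild type and 15 min for delPPT1, is written 15-16 min in both. The sources used here do not give the strain background, the medium or the size of the shift, and no unshifted culture was followed, so time or handling alone cannot be told apart from the shift.

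In budding yeast, the origin recognition complex (ORC) marks replication origins, and Cdc6 joins it as cells leave mitosis and enter G1. Together with Cdt1 they load the ring of Mcm2 to Mcm7, the core of the replicative helicase, onto DNA, where it waits until S phase kinases switch it on. Transcription of the MCM genes and CDC6 is known to rise between late mitosis and G1, under the transcription factors Mcm1 and, for CDC6, also Swi5, ahead of the G1/S genes that SBF and MBF drive.

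Levels are given as centred log2 ratios, in which 0 is the median gene of an array. They are read as sample over reference because the labels call channel 2 the reference. No source states the direction, and the opposite reading would turn every direction below. The arrays held a value for 5440 to 5807 genes, fewest on the wild type 16 min array, where 382 were missing, and pairs of arrays correlated with r from 0.366 to 0.829 across genes. The strain label was checked with PPT1, whose level showed no fall on arrays labelled ppt1 (fitted difference 0.19 ± 0.13, SE; limma adjusted p = 0.417), so they are called by that label. With 1 array per strain and time, the 2 strains served as the replicates of a time and the matched times as those of a strain. The p-values rest on the spread left by these additive terms, in which a strain difference in response counts as error. Separate cultures are not named in the labels, so this spread may also be technical. In bulk RNA, more transcript per cell and more cells in the phase that makes it cannot be told apart.

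Before the shift the centred log2 ratio was below 0 for all 7 genes in the wild type and for 5 of 7 on the array labelled ppt1. Centring puts as many genes below 0 as above it on each array. The value is a ratio to the reference and does not give how highly a gene was expressed. At 15-16 min, 4 of the 7 genes passed as higher than at 0 min: CDC6, MCM5, MCM3 and MCM2, by 1.44-fold to 1.65-fold. At 7 min MCM2 alone passed, and at 30 and 60 min CDC6 alone (limma, adjusted p under 0.05 over all genes). At 7, 15-16, 30 and 60 min 0.447%, 1.56%, 3.56% and 3.97% of all genes passed as higher. At an unadjusted p under 0.05 the counts were 6, 5, 3 and 4 of 7 in order of time, against 5.89%, 8.42%, 11.2% and 11.3% of all genes. Over any time the moderated F test passed CDC6, MCM2 and MCM5, 3 of 7, against 8.98% of all genes.

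**Figure D1:**
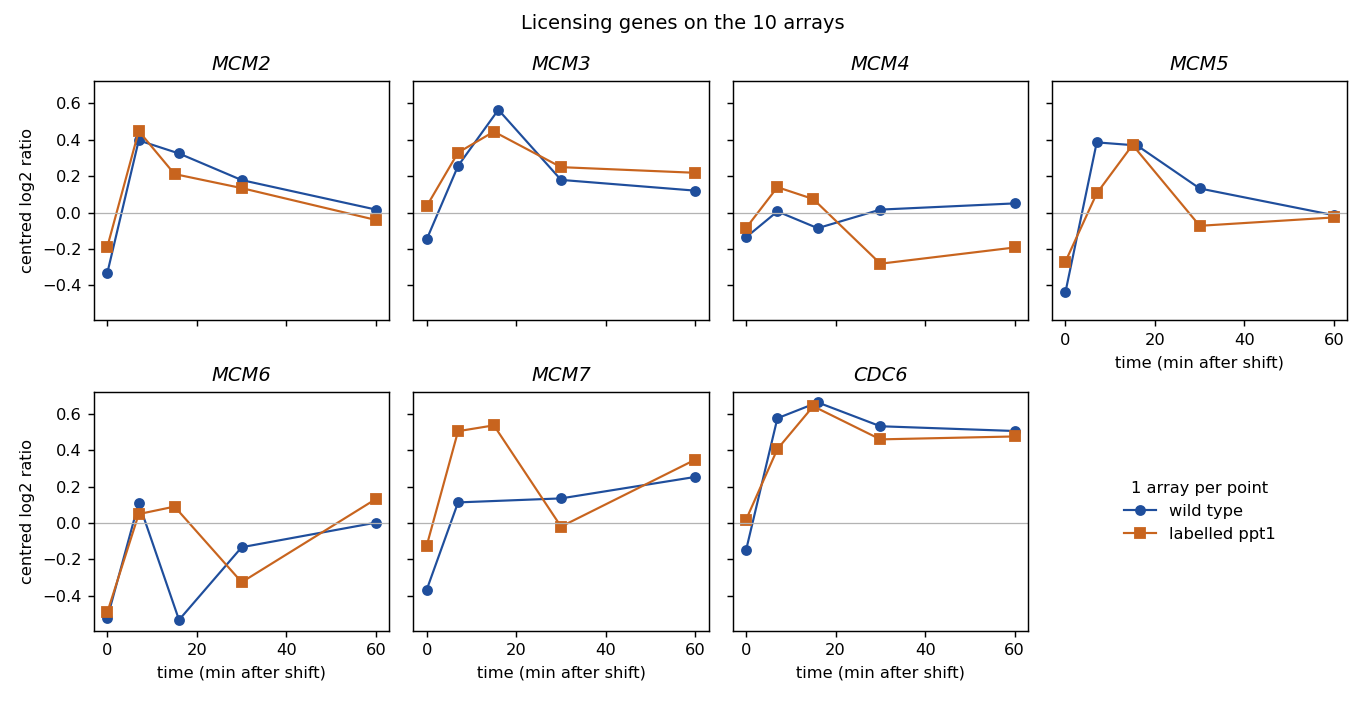
Centred log2 ratio (y axis) of each gene against time in minutes (x axis) in the wild type (circles) and on the arrays labelled ppt1 (squares), 1 array per point. MCM7 has no value at 16 min in the wild type. The 0 min points lie lowest for MCM2, MCM3, MCM5, MCM7 and CDC6 in both strains, while MCM6 returns to -0.53 at 16 min in the wild type.

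CDC6, the gene of the ATPase that recruits the MCM ring to ORC, was the 1 gene of the 7 that passed at 3 of the 4 later times. In the wild type its centred log2 ratio was -0.15 at 0 min, then 0.58, 0.66, 0.53 and 0.50 at 7, 16, 30 and 60 min. On the arrays labelled ppt1 it was 0.02 at 0 min, then 0.41, 0.64, 0.46 and 0.47. The 8 later arrays lay between 0.41 and 0.66, all above both 0 min arrays. Over both strains CDC6 was higher than at 0 min by 0.72 ± 0.13 at 15-16 min (SE of the fit over 10 arrays; limma adjusted p = 0.00948), by 0.56 ± 0.13 at 30 min (adjusted p = 0.0209) and by 0.56 ± 0.13 at 60 min (adjusted p = 0.021). At 7 min the difference was as large, 0.56 ± 0.13, but did not pass (adjusted p = 0.052). CDC6 was the only one of the 7 genes past the threshold at 30 min or 60 min, when 3.56% and 3.97% of all genes passed as higher.

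MCM2, whose subunit stands beside Mcm5 at the gate through which the ring opens, was highest at the first later time. Its values in the wild type were -0.33, 0.40, 0.32, 0.18 and 0.02 in order of time, and on the arrays labelled ppt1 -0.19, 0.45, 0.21, 0.13 and -0.04. The 2 strains followed the same order, with both 7 min arrays above all others and both 0 min arrays below. The fitted difference from 0 min was 0.68 ± 0.12 at 7 min (limma adjusted p = 0.0181), a 1.6-fold rise, and 0.53 ± 0.12 at 15-16 min (adjusted p = 0.033). It was 0.41 at 30 min (adjusted p = 0.0615) and 0.25 at 60 min (adjusted p = 0.24), neither of which passed. At 7 min only 0.447% of all genes passed as higher.

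MCM5 and MCM3 rose at 15-16 min. MCM5 stood at -0.44, 0.38, 0.37, 0.13 and -0.02 in the wild type and at -0.27, 0.11, 0.37, -0.07 and -0.03 on the arrays labelled ppt1, so the strains met at 15-16 min and at 60 min and lay apart at 7 min. Its fitted difference from 0 min was 0.72 ± 0.14 at 15-16 min (limma adjusted p = 0.014), a 1.65-fold rise, and 0.60 ± 0.14 at 7 min (adjusted p = 0.0569). MCM3, whose subunit lets the loader dock on the ring, stood at -0.15, 0.26, 0.56, 0.18 and 0.12 in the wild type and at 0.03, 0.33, 0.44, 0.25 and 0.22 on the arrays labelled ppt1. Both 15-16 min values were the highest of their strain, and the difference from 0 min was 0.56 ± 0.13 (adjusted p = 0.0268). At 15-16 min 1.56% of all genes passed as higher.

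The genes of Mcm4, Mcm6 and Mcm7, which can form a helicase among themselves in vitro, passed at no single time. MCM7 stood at -0.37, 0.11, 0.14 and 0.25 at 0, 7, 30 and 60 min in the wild type, with no value at 16 min, and at -0.12, 0.50, 0.54, -0.02 and 0.35 on the arrays labelled ppt1. Both 0 min arrays were below all others. Its fitted difference at 15-16 min, 0.71 ± 0.20, was close in size to that of MCM5, but it rested on the 15 min array labelled ppt1 alone and did not pass (limma adjusted p = 0.0716). At 60 min it was 0.55 ± 0.16 (adjusted p = 0.0539).

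MCM6 stood at -0.52, 0.11, -0.53, -0.13 and 0.00 in the wild type and at -0.49, 0.05, 0.09, -0.32 and 0.13 on the arrays labelled ppt1. The 16 min wild type array put it back at its 0 min level, 0.62 below the matched array labelled ppt1, which is the largest strain gap at a single time among the 7 genes. Its residual SD, 0.221, was the highest of the 7, against 0.071 for MCM2. The fitted difference from 0 min was 0.58 ± 0.18 at 7 min (limma adjusted p = 0.148), 0.28 ± 0.18 at 15-16 min (adjusted p = 0.413) and 0.57 ± 0.18 at 60 min (adjusted p = 0.0718). Without the 16 min wild type array the 15-16 min difference was 0.61, and without the 15 min array labelled ppt1 it was -0.04.

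MCM4 had the narrowest span of the 7. It covered 0.42 over the 10 arrays, from -0.28 at 30 min to 0.14 at 7 min, both labelled ppt1, where the other 6 genes covered 0.66 to 0.90. In the wild type it stayed between -0.14 and 0.05. Its fitted differences from 0 min lay between -0.02 and 0.18 with an SE of 0.15, and their 95% intervals reached up to 0.52 at 7 min and 0.32 at 30 min, so a rise like that of MCM3 at 7 min (0.35) lies inside the first of them. The sign at 30 min was positive, 0.04, without centring.

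**Figure D2:**
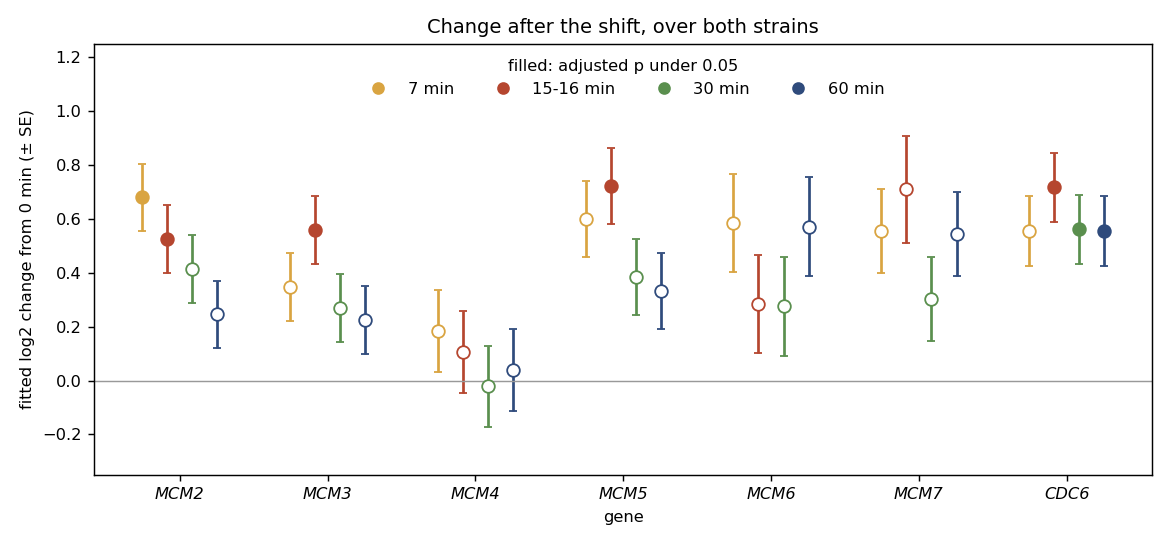
Fitted log2 change from 0 min (y axis, points with ± SE of the limma fit over 10 arrays) for each gene (x axis) at 7, 15-16, 30 and 60 min. Filled points passed at an adjusted p under 0.05, which were MCM2 at 7 min, MCM2, MCM3, MCM5 and CDC6 at 15-16 min, and CDC6 at 30 and 60 min.

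Over the 7 genes the median fitted difference from 0 min was 0.56 at 7 min and at 15-16 min, 0.30 at 30 min and 0.33 at 60 min, while the median over all genes stayed between -0.02 and 0.00. The highest of the 4 later times was 7 min for MCM2, MCM4 and MCM6 and 15-16 min for MCM3, MCM5, MCM7 and CDC6, and it was 30 or 60 min for 0 of 7. These are orders of fitted values. The change from 7 to 15-16 min was within 1 SE for MCM4 (-0.078 ± 0.152), MCM5 (0.125 ± 0.141) and MCM7 (0.156 ± 0.199). For MCM6 the 7 min (0.58) and 60 min (0.57) values lay within 1 SE. Without the wild type 7 min array its 7 min value was 0.48, and 60 min was then the highest time. Over all genes it was 7 min in 29.5%, 15-16 min in 19.5%, 30 min in 22.6% and 60 min in 28.3%. Taken strain by strain, 52 of the 55 differences between a later array and its own 0 min array were above 0. The 3 others were MCM4 at 30 and 60 min on the arrays labelled ppt1 and MCM6 at 16 min in the wild type. The share of such differences above 0 over all genes was not counted, so the 52 of 55 is not read as particular to the 7 genes. MCM2, MCM3, MCM5, MCM7 and CDC6 were higher at each later time in both strains, as were 11.5% of the genes with at least 7 of the 8 differences. For the same 5 genes both 0 min arrays lay below every other array, against 6.95% of genes with at least 9 values. These differences share the 0 min array of each strain and are not independent.

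Leaving out single arrays removed calls. Without the wild type 0 min array 0 of 7 genes passed at any of the 4 times, with differences for CDC6 of 0.60 at 15-16 min (limma adjusted p = 0.102) and for MCM2 of 0.59 at 7 min (adjusted p = 0.186). Without the 0 min array labelled ppt1, MCM5 (0.87) and CDC6 (0.84) still passed at 15-16 min. Without the 16 min wild type array 0 of 7 passed at 15-16 min, and without the 15 min array labelled ppt1 MCM3 and CDC6 did. CDC6 at 60 min had an adjusted p of 0.103 and 0.119 without the wild type 60 min array and without that labelled ppt1.

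No step from one later time to the next passed for any of the 7 genes, by limma with adjustment over all genes. Of all genes 0.464% passed from 7 to 15-16 min, 0.0516% from 15-16 to 30 min and 0.0516% from 30 to 60 min. At an unadjusted p under 0.05 the counts were 0, 2 (MCM3 and MCM5) and 0 of 7, against 7.03%, 8.58% and 9.85% of all genes. The whole span was compared after the values had been seen. From 7 to 60 min MCM2 changed by -0.43 ± 0.12 (limma adjusted p = 0.107), where 2.8% of all genes passed. MCM2 was also the 1 gene of 7 with an unadjusted p under 0.05, against 17.2% of all genes. From 15-16 to 60 min MCM5 changed by -0.39 ± 0.14 (adjusted p = 0.291), MCM3 by -0.34 ± 0.13 (adjusted p = 0.305) and CDC6 by -0.16 ± 0.13 (adjusted p = 0.632), where 0.877% passed. MCM2, MCM3 and MCM5, 3 of 7, had an unadjusted p under 0.05, against 13.1% of all genes. The lower levels of the MCM genes at 60 min than at their peak are therefore values that did not pass.

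The strains did not differ past the threshold for any of the 7 genes. Averaged over matched times, the difference, labelled ppt1 minus wild type, ran from -0.07 ± 0.09 for MCM5 to 0.14 ± 0.11 for MCM7 (SE), with limma adjusted p from 0.47 to 0.983. At an unadjusted p under 0.05 the count was also 0 of 7, against 23.2% of all genes, and 3.8% of all genes passed the adjusted test. The 95% intervals bound these differences. They ran from -0.18 to 0.17 for MCM2, from -0.12 to 0.24 for MCM3, from -0.25 to 0.18 for MCM4, from -0.27 to 0.14 for MCM5, from -0.15 to 0.36 for MCM6, from -0.11 to 0.39 for MCM7 and from -0.21 to 0.16 for CDC6. CDC6 was lower on the arrays labelled ppt1 in 4 of 5 matched pairs and MCM3 higher in 4 of 5. At 0 min itself each of the 7 genes was higher on the array labelled ppt1, by 0.03 for MCM6 to 0.24 for MCM7, a pair of arrays without replicates. The shares of all genes with such pair counts, or higher on that 0 min array, were not counted, so these counts are not read as particular to the 7 genes.

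The response to the shift was also not shown to differ between strains. The strain difference after the shift minus that before it ran from -0.29 ± 0.21 for MCM5 to 0.09 ± 0.30 for MCM6, with limma adjusted p of at least 0.993, and 0 of 7 genes passed where 0% of all genes did (4.71% at an unadjusted p under 0.05, and 0 of 7 here). The 95% intervals were wide, from -0.69 to 0.21 for CDC6 and from -0.63 to 0.27 for MCM2, so a strain gap in response as large as the rise of MCM2 itself cannot be told from none for several of them. Over the 8 arrays after the shift alone, the difference ran from -0.12 for MCM5 to 0.12 for MCM6, and 0 of 7 passed, against 0.962% of all genes.

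**Figure D3:**
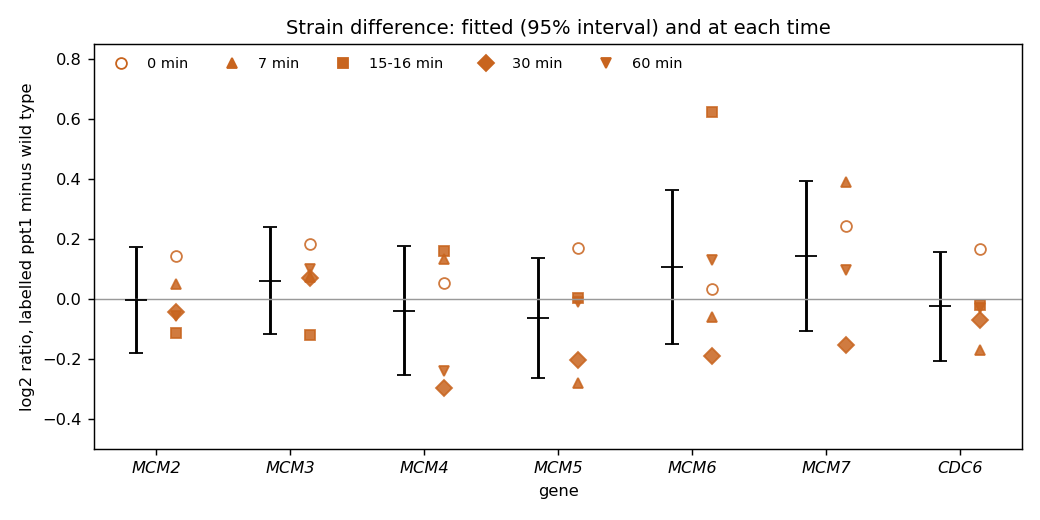
Difference in centred log2 ratio, labelled ppt1 minus wild type (y axis), for each gene (x axis). Black bars give the fitted difference with its 95% interval, and orange marks the single matched pairs by time. Each interval spans 0, and the 15-16 min pair of MCM6, at 0.62, lies farthest from it.

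Across the 10 arrays the 7 genes followed each other to different degrees. Pearson's r over their 21 pairs had a median of 0.68 and ran from 0.24, for MCM3 with MCM4, to 0.90, for MCM5 with CDC6. Set against the mean of the other MCM genes, r was 0.86 for MCM7 (9 arrays) and CDC6, 0.83 for MCM5, 0.81 for MCM2, 0.71 for MCM3, 0.56 for MCM6 and 0.54 for MCM4. These are descriptions of 10 arrays that share 1 time course, and the 0 min pair weighs on each of them.

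The mean centred log2 ratio of the 6 MCM genes was -0.32 at 0 min in the wild type, then 0.21, 0.13 (5 genes, without MCM7), 0.08 and 0.07. On the arrays labelled ppt1 it was -0.19, then 0.26, 0.29, -0.05 and 0.07. The 30 min array labelled ppt1 was the only later array with a mean below 0, and there MCM6 (-0.32) and MCM4 (-0.28) were lowest while MCM3 stood at 0.25. Among the 4895 other genes with all 10 values, those most like the mean of the 6 MCM genes were RRP6, a nuclear exosome nuclease gene (r = 0.946), RPG1, a subunit of translation initiation factor eIF3 (0.939), URB1 of ribosome assembly (0.921), TYW1 of tRNA modification (0.916), MSS4, a phosphoinositide kinase gene (0.905), STE6, the a-factor exporter gene (0.899), CSE1, a nuclear export receptor gene (0.883), and YDR187C (0.867). The genes most like CDC6 were DEF1, of RNA polymerase II turnover (r = 0.949), MSA1, an activator of G1 transcription (0.932), HRP1 of mRNA 3' end processing (0.930), RPC34 of RNA polymerase III (0.927) and SFH1 of the RSC chromatin remodeller (0.920). No gene of the replication lists below was among these 13 genes. The share of list genes among the 4895 was not counted, so their absence is not read as a result. ORC1, ORC2, MCM10 and POL3 lacked a value on at least 1 array and could not appear.

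The other loading factors are the ORC subunits and Cdt1. Of the 6 ORC genes, 0 passed at 7, 15-16 and 60 min by limma, and 1 passed at 30 min, ORC2 (0.51 ± 0.13, adjusted p = 0.0377), when 3.56% of all genes did. At an unadjusted p under 0.05, 2, 3 and 2 of the 6 were higher at 7, 15-16 and 60 min, against 5.89%, 8.42% and 11.3% of all genes. The list's median difference from 0 min was 0.22, 0.19, 0.12 and 0.25 in order of time. ORC1, the ATPase subunit related to Cdc6, was at 0.49 ± 0.19 at 15-16 min (adjusted p = 0.166). TAH11, the gene of Cdt1, which escorts the ring to the origin, was at -0.12 ± 0.13 at 7 min (adjusted p = 0.712) and -0.22 ± 0.13 at 15-16 min (adjusted p = 0.389).

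Of the 12 genes that turn the loaded ring into an active helicase, CDC45, a helicase cofactor gene, rose at 15-16 min (0.88 ± 0.13, limma adjusted p = 0.00349), 30 min (1.10 ± 0.13, adjusted p = 0.000786) and 60 min (0.59 ± 0.13, adjusted p = 0.019). PSF1, of the GINS cofactor, rose at 60 min (0.52 ± 0.14, adjusted p = 0.0411). The other 10 passed at no time, among them CDC7 and DBF4, the kinase that fires origins, at 0.12 ± 0.15 and 0.41 ± 0.21 at 15-16 min (adjusted p = 0.696 and 0.306). In order of time 0, 1, 1 and 2 of the 12 passed as higher, against 0.447%, 1.56%, 3.56% and 3.97% of all genes. The medians of this list were 0.07, 0.14, 0.19 and 0.08.

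The polymerase and fork list, 18 genes, had 0 that passed at 7 min, 3 that rose at 15-16 min, 6 at 30 min and 3 at 60 min, against 0.447%, 1.56%, 3.56% and 3.97% of all genes, with medians of 0.18, 0.35, 0.38 and 0.28. POL12, a subunit of DNA polymerase alpha, led at 30 min (0.95 ± 0.16, limma adjusted p = 0.00376), followed by DPB2 (0.71 ± 0.16, adjusted p = 0.0221) and the primase gene PRI1 (0.64 ± 0.13, adjusted p = 0.011). PRI2, POL2 and POL31 also rose at 30 min. PRI2, POL31 and RFC5 rose at 15-16 min, and DPB2, TOF1 and RFC5 at 60 min. At an unadjusted p under 0.05, PRI1, TOF1 and RFC1 were higher at 7 min, 3 of the 18 against 5.89% of all genes, and POL32 was lower (-0.37). The highest later time was 30 min for 10 of the 18, against 22.6% of all genes.

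Of the 11 G1/S genes of SBF and MBF measured, 0 passed at 7 min by limma, with 5 higher at an unadjusted p under 0.05 against 5.89% of all genes. Of the 11, 7 rose at 15-16 min, 8 at 30 min and 7 at 60 min, against 1.56%, 3.56% and 3.97% of all genes, with medians at the 4 times of 0.28, 0.71, 0.89 and 0.55. CLN1 (G1 cyclin), CLB5 and CLB6 (S phase cyclins), RNR1 (ribonucleotide reductase), POL30 (the PCNA sliding clamp) and TOS4 passed at each of the last 3 times, CLN2 at 15-16 and 30 min and RFA1 of the single-strand binding complex at 30 and 60 min. POL30 at 30 min had the highest value, 1.48 ± 0.14 (limma adjusted p = 0.00012). The highest later time was 7 min for 0 of the 11, 15-16 min for 3 and 30 min for 8, against 29.5%, 19.5% and 22.6% of all genes. Of the 7 licensing genes 4, MCM3, MCM5, MCM7 and CDC6, had theirs at 15-16 min, MCM5 and MCM7 within 1 SE of 7 min. The other 3, MCM2, MCM4 and MCM6, had theirs at 7 min, MCM4 within 1 SE of 15-16 min and MCM6 within 1 SE of 60 min. The difference in timing between the lists was not tested. CDC9, CDC21 and SWE1 passed at no time. SWI4, the DNA-binding subunit of SBF and itself driven by Mcm1, was at 0.52 ± 0.16 at 15-16 min (limma adjusted p = 0.0894).

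**Figure D4:**
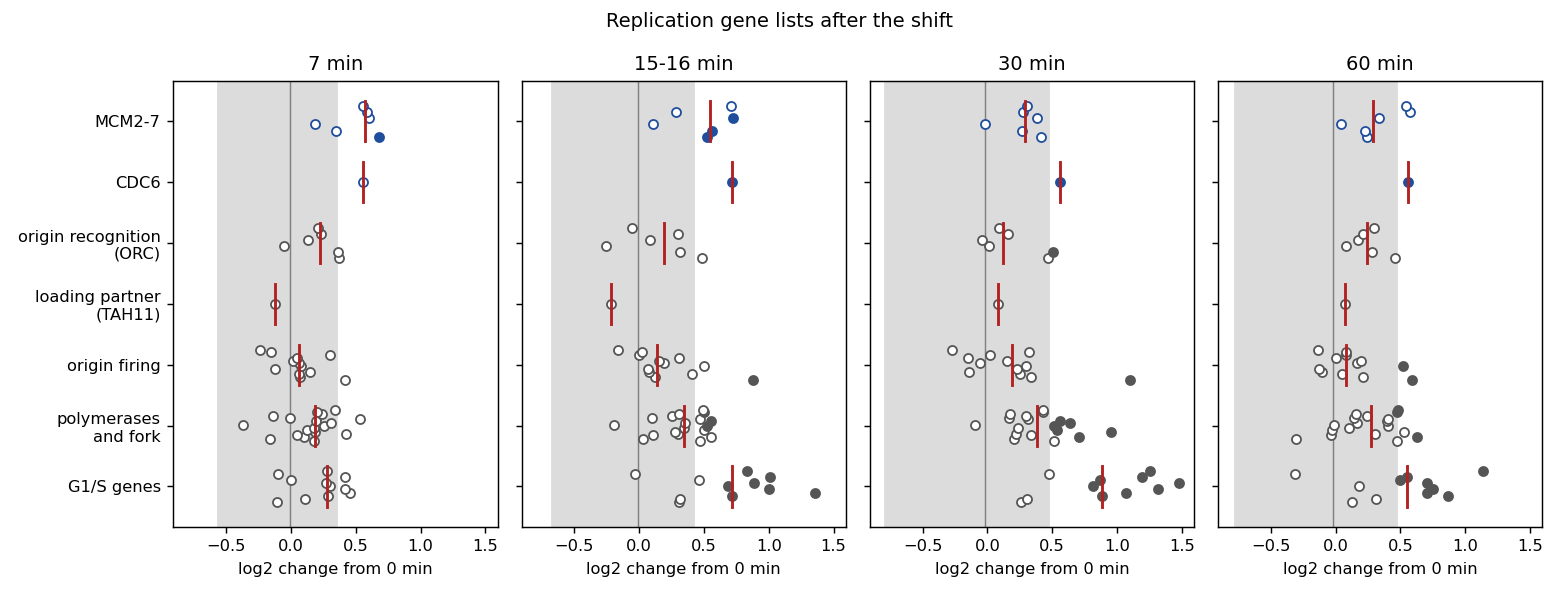
Fitted log2 change from 0 min (x axis) of each gene in the MCM2 to MCM7, CDC6 and other replication lists (rows) at 7, 15-16, 30 and 60 min (panels). Filled points passed at an adjusted p under 0.05, red bars are list medians, the grey band spans the 5th to 95th percentile of all genes (-0.56 to 0.35 at 7 min) and the grey line their median. At 7 min the MCM2 to MCM7 median, 0.57, lies right of the band and that of the G1/S genes, 0.28, inside it, and at 15-16 min both medians, 0.54 and 0.71, lie right of it.

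Genes of transcription regulators, and other targets of the Mcm1 promoter element, moved unevenly. Whether any of these genes acts on the 7 licensing genes here was not tested. MCM1, the gene of the transcription factor itself, was at 0.05 ± 0.14 at 7 min and 0.02 ± 0.14 at 15-16 min (limma adjusted p = 0.916 and 0.966). CLN3, a G1 cyclin gene driven by the same promoter element, rose at 15-16 min (0.55 ± 0.12, adjusted p = 0.0245) and 30 min (0.46 ± 0.12, adjusted p = 0.0385). YOX1 and YHP1 encode repressors of that element. YOX1 was at 0.57 ± 0.19 at 15-16 min (adjusted p = 0.106). YHP1 was at 0.56 ± 0.13 at 7 min (adjusted p = 0.0517) and rose at 60 min (0.63 ± 0.13, adjusted p = 0.0122). The forkhead factor gene FKH1 rose at each of the 4 times, from 0.70 at 15-16 min to 1.16 at 30 min. FKH2 passed at no time. MCM1, SWI4, CLN3, YOX1, YHP1, FKH1 and FKH2 form a list of 7. Of that list 1, 2, 2 and 2 passed as higher in order of time, against 0.447%, 1.56%, 3.56% and 3.97% of all genes. SWI5, a transcription factor gene, rose at 60 min (0.47 ± 0.12, adjusted p = 0.0342) and was at 0.49 ± 0.12 at 7 min (adjusted p = 0.0687). CLN3 was also higher on the arrays labelled ppt1 (0.38 ± 0.08, adjusted p = 0.0318), and CLB6 of the G1/S list was lower (-0.60 ± 0.11, adjusted p = 0.0201).

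The names of 5 further genes begin with MCM although their products are not subunits of the ring: MCM1, MCM10, a helicase activation factor, and MCM16, MCM21 and MCM22 of the kinetochore. Of these 5, MCM16 rose at 30 min (0.50 ± 0.13, limma adjusted p = 0.0352) and 60 min (0.46 ± 0.13, adjusted p = 0.0465), and the other 4 passed at no time. At 30 and 60 min 3.56% and 3.97% of all genes passed as higher. The medians of the 5 genes, -0.01, 0.02, -0.11 and 0.07, compare with 0.57, 0.54, 0.29 and 0.29 for MCM2 to MCM7, and this difference was not tested.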

How the data were processed

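The deposited values were log2 ratios of 2 channels, 1 per gene and array, taken as base 2. The sources used here do not give the base, dyes, platform, background correction or normalization. Natural logs were not excluded and would enlarge every value without changing a test. Array medians were subtracted. With limma 3.58.1 (R 4.3.3), time and strain entered as additive terms for all 5822 genes on 10 arrays (4 residual and 5.8 prior degrees of freedom), with each contrast a coefficient of the design. MCM7 lacks the wild type 16 min array and has 3 residual degrees of freedom. A second fit added the strain difference after the shift minus that before (3 residual degrees of freedom), and another used the 8 later arrays. The threshold was a Benjamini-Hochberg adjusted p under 0.05 over all genes tested. The scripts were tested on simulated data with known changes. With 1 array per strain and time, precision is limited by the number of arrays.

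Members and gene lists were chosen with earlier results of these data known. The text names the 7 genes, the genes of the lists that passed with some of those that changed most, the 8 genes most like the MCM mean and the 5 most like CDC6. PCL1 of the G1/S list was not analysed here, and 1 further list is not reported here. Neighbours come from a RefSeq gene table of assembly R64, and no coordinates are given because no build is named for the arrays. Promoter motifs were not analysed here. Alternatives were no centring, median and MAD scaling, quantile normalization, complete genes only, single terms left out and each array left out in turn.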

Additional observations from a re-analysis of the deposited data

How the results depend on the processing

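The number of the 7 genes that passed depended on single arrays. With each of the 10 arrays left out in turn, 0 to 1 passed at 7 min (1 with all arrays) and 0 to 4 at 15-16 min (4). At 30 min 0 to 1 passed (1) and at 60 min 0 to 3 (1). In the F test of any change over time 0 to 2 passed (3). MCM2 at 7 min was lost without either 0 min or either 7 min array, and CDC6 at 30 and 60 min without either 0 min array or either array of the time itself. At 15-16 min 0 passed without the wild type array of 0 or 16 min, and 2 without the array labelled ppt1 of 0 or 15 min. MCM2 at 15-16 min was also lost without either 7 or either 60 min array and under MAD scaling or quantile normalization. At 60 min MCM6 and MCM7 joined CDC6 without either 15-16 min array, and MCM7 did without either 30 min array. Without centring 3 passed at 7 min (MCM2, MCM5, CDC6), 2 at 30 min (MCM2, CDC6) and 3 at 60 min (MCM6, MCM7, CDC6), and with complete genes only 3 at 7 min. Without the strain term 2 passed at 15-16 min. The steps and strain comparisons kept 0 of 7 under each alternative that could be fitted, and the strain difference after minus before the shift cannot be fitted without a 0 min array. The strain comparison was already paired by time, which is a term of the fit, and the labels carry no replicate numbers for a further block. The cause of these shifts was not tested.

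Signs turned only for values that never passed. Over arrays left out, MCM4 ran from -0.02 to 0.23 at 15-16 min, from -0.18 to 0.14 at 30 min and from -0.087 to 0.17 at 60 min, and MCM6 from -0.039 to 0.61 at 15-16 min. The strain difference ran from -0.041 to 0.023 for MCM2, from -0.089 to 0.026 for MCM4, from -0.023 to 0.18 for MCM6 and from -0.073 to 0.011 for CDC6. It was 0.023 for MCM2 under MAD scaling and under quantile normalization, and 0.039 and 0.024 for CDC6, while MCM4 at 30 min was 0.035 without centring. Over all genes, quantile normalization called 53, 208, 437 and 451 genes at the 4 times, against 176, 418, 661 and 719, and 124 against 221 for the strain difference, which called 351 with complete genes only and 0 without the time term. MAD scaling called 91, 255 and 476 at 7, 15-16 and 60 min, and a fit without the strain term 80, 209, 361 and 392. With arrays left out the counts ran from 44 to 164, 162 to 392, 265 to 728 and 273 to 780 at the 4 times, from 212 to 515 for any change (522 with all arrays), from 34 to 96 for the strain difference and from 3 to 15 for that after the shift alone (56, and 92 with complete genes only).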

Other observations

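Of the 13 measured neighbours of these genes on the chromosome 2 passed at 15-16 min, against 7.18% of all genes in either direction, and are named here after their values were seen. PIG1, a regulator of glycogen synthase, lies next to MCM5 on the opposite strand and rose by 0.72 ± 0.17 at 15-16 min (limma adjusted p = 0.031), close to the 0.72 ± 0.14 of MCM5, and by 0.65 ± 0.17 at 30 min (adjusted p = 0.0345). It was lowest at 0 min in both strains, at -0.35 in the wild type and -0.81 on the array labelled ppt1, and correlated with MCM5 at r = 0.58 over the 10 arrays. ELO1, a fatty acid elongase gene, is the nearest listed gene on 1 side of CDC6 and fell. The fitted difference from 0 min was -0.72 ± 0.15 at 7 min (adjusted p = 0.0336), -0.62 ± 0.15 at 15-16 min (adjusted p = 0.0357) and 0.10 ± 0.15 at 60 min (adjusted p = 0.703), while CDC6 stayed at 0.56 at 60 min. Probe sequences were not analysed here.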
